A study of Mus musculus with 5 samples.

Results

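Promoter contacts that scored highly in both supporting cell types of the gonad, Sertoli and pre-granulosa, and that ended in chromatin without a captured promoter, were described here. Each contact pairs a bait, a bin of about 5 kb around captured promoters, with an other end, a second bin of about 5 kb that carries no bait name. Contacts were chosen on their measured scores: both ends on the same chromosome, baits on chromosomes 1 to 9, no bait in the other end and a score of at least 8 in each cell type. This gave 1789 strong shared contacts out of 22878 listed contacts of that kind, or 7.82%, in a table of 51777 contacts, and this share was set by the choice itself. They came from 933 baits, which is 15.7% of the 5934 baits with a listed contact of that kind, and ended in 1617 bins.

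The cells came from mouse gonads at E13.5 (days of embryonic development). Sertoli cells, the supporting cells of the testis, were sorted by GFP from Sox9IRES-GFP gonads and gave 3 libraries. Pre-granulosa cells, their counterpart in the ovary, were sorted by mCherry from Enh8-mCherry gonads and gave 2 libraries, and each library was made from about 100000 cells. The deposited values are 1 score per contact and cell type, so that no value below has a replicate error, no test between the cell types was possible, and the read depth is unknown.

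Capture Hi-C joins chromatin fragments that lie close together in the nucleus and enriches the ligation products of chosen promoters. CHiCAGO, the caller named for the scores, compares each pair of fragments with the signal expected at its distance, and a higher score stands for a smaller p-value of that comparison. Promoters are known to contact enhancers, insulator sites bound by CTCF, gene bodies and other promoters, and bins without a bait can hold any of these except a captured promoter. Sertoli and pre-granulosa cells are known to arise from a common bipotential precursor, which is what makes contacts found in both of interest. No expression or chromatin mark was measured in these tables, so neither the labelled cell types nor the function of a bin could be checked here.

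The promoters of 6 baits are shown because their contacts carry the results below. Tfap2b, Mecom and Gad1 have long contacts with similar scores, Rgs16 a distant block of bins, and Ctnnd1 and Ugt1a1 the 2 contacts with the highest lower score of both cell types. Each line gives the 250 bases before the RefSeq start on GRCm38.p6, which shares its coordinates with mm10, in the direction of transcription. They lie at chr1:19211804-19212053 (plus strand, Tfap2b), chr3:30013205-30013454 (minus, Mecom), chr2:70561879-70562128 (plus, Gad1), chr1:153740103-153740352 (plus, Rgs16), chr2:84650741-84650990 (minus, Ctnnd1) and chr1:88211709-88211958 (plus, Ugt1a1). Capitals mark exact matches, on either strand, to the 8 short motifs searched.

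Tfap2b: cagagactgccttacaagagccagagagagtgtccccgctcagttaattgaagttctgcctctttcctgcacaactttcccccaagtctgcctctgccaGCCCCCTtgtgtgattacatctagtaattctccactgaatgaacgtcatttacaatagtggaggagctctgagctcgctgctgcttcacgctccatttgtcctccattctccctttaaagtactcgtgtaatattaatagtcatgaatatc
Mecom: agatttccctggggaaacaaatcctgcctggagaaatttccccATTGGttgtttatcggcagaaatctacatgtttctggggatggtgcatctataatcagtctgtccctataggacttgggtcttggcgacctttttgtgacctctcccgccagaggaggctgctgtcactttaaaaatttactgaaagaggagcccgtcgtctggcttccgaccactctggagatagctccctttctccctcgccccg
Gad1: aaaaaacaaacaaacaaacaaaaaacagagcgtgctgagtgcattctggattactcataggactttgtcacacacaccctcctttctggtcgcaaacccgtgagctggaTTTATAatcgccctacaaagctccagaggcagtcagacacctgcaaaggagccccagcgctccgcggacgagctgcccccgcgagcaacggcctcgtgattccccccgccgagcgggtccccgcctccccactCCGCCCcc
Rgs16: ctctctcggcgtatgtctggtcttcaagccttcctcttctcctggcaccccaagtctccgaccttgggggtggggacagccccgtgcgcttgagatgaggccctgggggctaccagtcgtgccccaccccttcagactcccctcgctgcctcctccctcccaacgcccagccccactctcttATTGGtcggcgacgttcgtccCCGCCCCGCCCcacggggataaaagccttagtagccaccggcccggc
Ctnnd1: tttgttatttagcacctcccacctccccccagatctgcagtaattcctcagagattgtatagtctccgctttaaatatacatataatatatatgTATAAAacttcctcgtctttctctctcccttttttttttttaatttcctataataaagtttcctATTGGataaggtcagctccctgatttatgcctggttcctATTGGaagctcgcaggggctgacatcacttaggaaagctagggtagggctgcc
Ugt1a1: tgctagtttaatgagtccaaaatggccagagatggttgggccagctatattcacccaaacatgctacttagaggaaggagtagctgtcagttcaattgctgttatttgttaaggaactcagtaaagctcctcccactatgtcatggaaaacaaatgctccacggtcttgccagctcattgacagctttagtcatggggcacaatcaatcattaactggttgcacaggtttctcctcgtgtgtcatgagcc

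The motifs were the GC box (GGGCGG), the core of the CTCF motif (AGGGGGC or AGGTGGC), an ETS motif (CCGGAAG), NRF1 (GCGCNTGCG), YY1 (AAGATGGC), SF-1 (CAAGGTCA), the TATA box (TATAAA) and CCAAT, none of which contains another. In these windows Tfap2b held the CTCF core, Mecom a CCAAT box, Gad1 a TATA box and a GC box, Rgs16 a CCAAT box beside overlapping GC boxes, and Ctnnd1 a TATA box and CCAAT boxes, while Ugt1a1 held none of the searched letters. No motif was common to all 6, and a match is a description of letters, not of a bound factor.

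Over all 541 baits with a strong shared contact and a matched RefSeq promoter, the 250 bases before the start had a median GC content of 55.2% (95% interval 54.4 to 56), and the 2973 other matched baits had 55.2% (54.8 to 55.6). The observed over expected CpG ratio was 0.51 (0.45 to 0.56) against 0.47 (0.45 to 0.50). The GC box was found in 40.5% of the former, 41.1% of the latter and 32.7% of all 32851 RefSeq promoters of the same length. The CTCF core stood in 16.8%, 16.6% and 14.0%. SF-1, the motif of the gonadal factor encoded by Nr5a1, stood in 1.29%, 1.14% and 1.33%. The ETS motif was found in 8.13%, 7.77% and 6.91%, and NRF1 in 5.91%, 6.22% and 5.19%. YY1 was found in 1.11%, 1.48% and 1.56%, the TATA box in 10.7%, 10.7% and 12.4%, and CCAAT in 34.6%, 35.5% and 33.8%. For each of these measures the intervals of baits with and without strong shared contacts overlapped.

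The scores of the chosen contacts are given as a description. The median Sertoli score was 12.6 and the median pre-granulosa score 11.1, with maxima of 49.3 and 34.4, and the median of the lower of both scores was 10.1. Both scores reached 15 in 228 contacts and 20 in 70. At the threshold the choice cut through a continuum, since 73 contacts had a lower score from 8 to under 8.1 and 71 non-members had one from 7.9 to under 8. The scores of the cell types lay within 2-fold of each other in 1687 contacts (94.3%), were at least 2-fold higher in Sertoli cells in 94 and at least 2-fold higher in pre-granulosa cells in 8. The requirement of a score of at least 8 on both sides forces the scores towards each other, and of all 6039 contacts with both scores of at least 5, 90.7% lay within 2-fold. The Sertoli score was the higher one in 1135 contacts, or 63.4% (95% Wilson interval 61.2 to 65.6), where 61.9% of those 6039 contacts had the higher score in Sertoli cells. The share among strong shared contacts was therefore near that of shared contacts in general. Across the members the Spearman correlation of the scores was 0.38, a value that the threshold itself narrows, and contacts of 1 bait are not independent points.

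**Figure D1:**
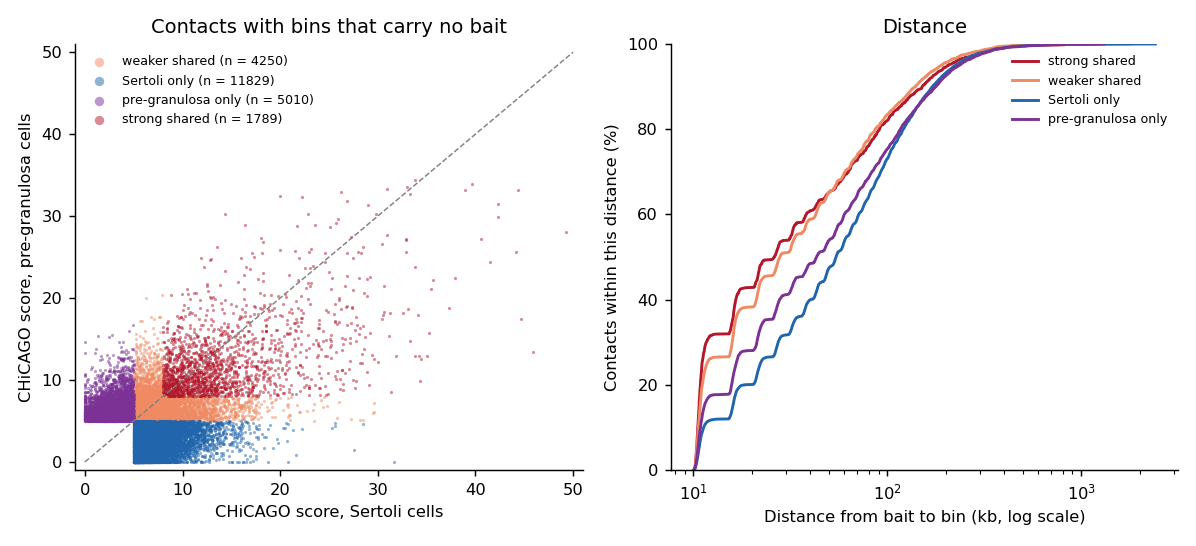
Left, CHiCAGO score in Sertoli cells (x) against pre-granulosa cells (y), 1 point per listed contact with a bin without a bait, coloured by group, with the line of equal scores dashed; the 1789 strong shared contacts fill the field above 8 on both axes and 94.3% lie within 2-fold of equality, against 90.7% of all contacts with both scores of at least 5, a closeness that the thresholds favour. Right, the percentage of contacts within a given distance (kb, log scale) for the same groups; the curves of both shared groups lie above those of contacts called in 1 cell type at short distance.

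Distance and position were not part of the rule itself. The score, however, compares each pair with the signal expected at its distance, so distance is not independent of the choice. The distances are given beside those of the other listed contacts of the same kind as a description. The median distance of strong shared contacts was 26.1 kb (95% interval 22.0 to 27.4), with a range from 10.04 to 846 kb. In the table of original baits the same choice gave a median of 12.8 kb (10.7 to 14.0). The shortest distance listed there was not determined, so the range of distances may differ. Weaker shared contacts, with both scores of at least 5 but not both of at least 8, had a median of 27.9 kb (27.1 to 31.4). Contacts called at a score of 5 in Sertoli cells only had a median of 54.3 kb (53.5 to 55.3), and those called in pre-granulosa cells only 43.1 kb (41.5 to 46.7). Shared contacts, strong or weaker, were thus shorter than those called in 1 cell type, and their intervals did not overlap with those of the latter. These intervals cover counting error only, and neighbouring bins share signal.

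Of the strong shared contacts, 766 (42.8%) spanned 10 to 20 kb, 398 (22.2%) 20 to 50 kb, 302 (16.9%) 50 to 100 kb, 226 (12.6%) 100 to 200 kb and 97 (5.42%) at least 200 kb. No contact on 1 chromosome nearer than 10.025 kb was listed in the table, so the first band starts at that limit. By chromosome, strong shared contacts made up from 6.29% (chromosome 4) to 8.92% (chromosome 7) of the listed contacts.

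The position of the bins followed the distance. Of 1779 contacts whose bait gene was matched to RefSeq, 34.5% (32.3 to 36.7) ended within the body of the bait gene, 44.0% in another gene and 21.5% between genes; exons and introns were not told apart. The share within the bait gene fell from 54.5% at 10 to 20 kb to 35.1% at 20 to 50 kb, 16.9% at 50 to 100 kb, 3.10% at 100 to 200 kb and 2.08% beyond. In most bands these shares were close to those of weaker shared contacts. At 100 to 200 kb, 3.10% (1.51 to 6.25; 7 of 226) of strong shared contacts ended in the bait gene, against 8.72% (6.58 to 11.5) of weaker shared contacts, 7.37% of Sertoli-only and 10.9% of pre-granulosa-only contacts.

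The strand of the bait gene was known for 1392 contacts, and 51.4% (48.7 to 54.0) lay on the transcribed side of the start, an interval that includes 50%. With the original baits, whose distances may differ in range, the share was 54.7% (51.95 to 57.5), and its interval lies above 50%. Bins on the transcribed side were in the bait gene in 45.7% of contacts and those on the upstream side in 24.96%, where baits at starts inside the gene have gene body on both sides. The bin held the far end of the bait gene in 69 contacts (4.96%, 3.94 to 6.23). The share was 4.03% for weaker shared, 2.88% for Sertoli-only and 2.85% for pre-granulosa-only contacts, groups that also differ in distance. Median scores were 12.8 and 11.2 (Sertoli, pre-granulosa) on the transcribed side and 12.5 and 11.0 on the upstream side.

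Many of the long contacts passed over protein-coding starts, where a start of the bait gene itself counts if it lies in between. At least 1 protein-coding start lay between bait and bin in 36.7% (34.5 to 38.9) of strong shared contacts, in 9.40% at 10 to 20 kb and in 78.8% (73.0 to 83.6) at 100 to 200 kb. Of the 323 contacts of at least 100 kb, from 203 baits, 249 passed over at least 1 such start. The most starts passed by 1 contact were 11. Weaker shared contacts gave 37.4% overall and 76.1% at 100 to 200 kb. At 50 to 100 kb the share was 64.9% (59.4 to 70.1) for strong shared, 62.1% for weaker shared, 63.9% for Sertoli-only and 54.0% (51.1 to 57.0) for pre-granulosa-only contacts, so that the last group was lower within this band.

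**Figure D2:**
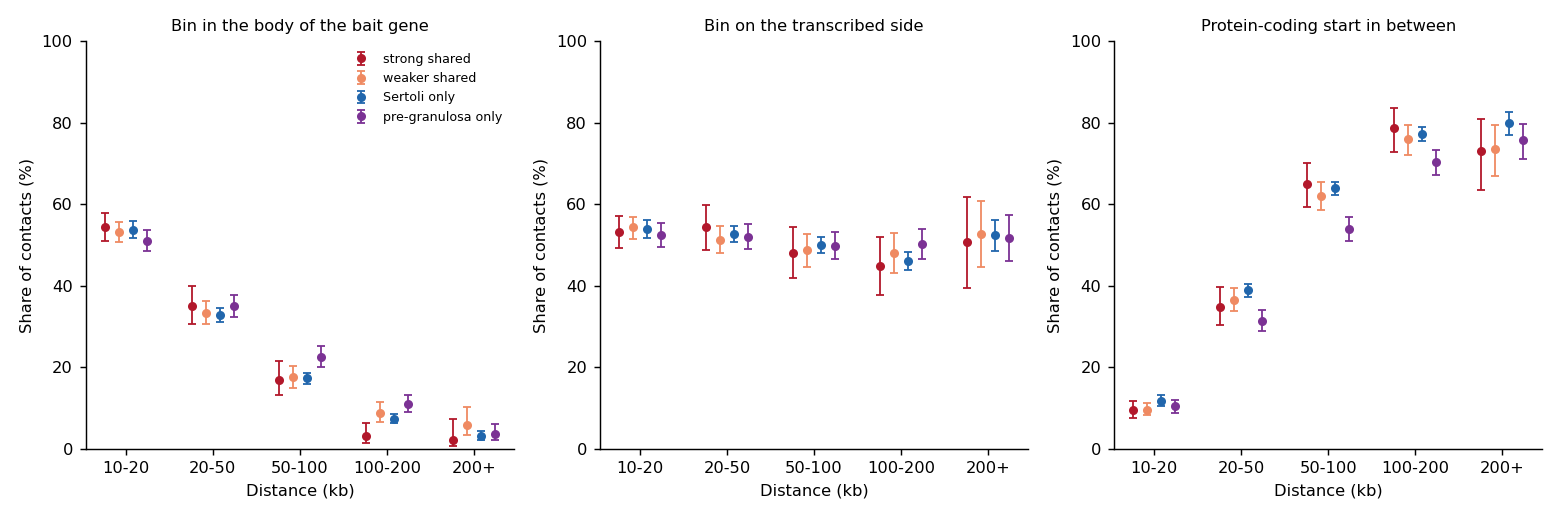
Share of contacts (%, with 95% Wilson intervals) by distance band (kb) for 4 groups of contacts with bins without a bait: bin in the body of the bait gene (left), bin on the transcribed side of the bait gene (middle) and a protein-coding start between bait and bin (right). At 100 to 200 kb in the left panel strong shared contacts sit at 3.10% and weaker shared contacts at 8.72%; at 50 to 100 kb in the right panel pre-granulosa-only contacts sit at 54.0% and strong shared contacts at 64.9%.

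Although the bins carry no bait, some hold starts of genes. A RefSeq start of any kind lay in the bin of 87 strong shared contacts (4.86%), and a protein-coding start in 32 (1.79%). The same shares were 4.45% and 1.51% for weaker shared, 4.04% and 1.10% for Sertoli-only and 4.25% and 1.30% for pre-granulosa-only contacts, near those of strong shared contacts. These 32 contacts ended in 27 different bins at a median of 19.5 kb (10.2 to 139.1 kb), 8 of them at another start of the bait's own gene, and 23 passed over no protein-coding start. The promoter of Bckdk, which encodes the kinase of the branched-chain ketoacid dehydrogenase, contacted the start of Kat8, a histone H4 acetyltransferase, at 11.0 kb with scores of 25.1 (Sertoli) and 28.7 (pre-granulosa). The bait shared by Folr1, a folate receptor gene, and Anapc15, a subunit of the anaphase-promoting complex, contacted the start of Folr2, a second folate receptor gene, with 21.0 and 16.4. Tulp2 contacted the start of the pro-apoptotic gene Bax at 44.05 kb with 17.2 and 11.7, and Pnrc2 that of the splicing factor gene Srsf10 with 13.1 and 15.9. At 200 kb or more, 14 of 97 contacts (14.4%, 8.80 to 22.8) had a RefSeq start in the bin and 0 a protein-coding one, which allows a share of up to 3.81% by the Wilson upper bound. Those starts were of predicted or noncoding genes, such as Gm33460 in the bin of Azi2. Weaker shared contacts of that distance had 10 of 186 (5.38%, 2.95 to 9.61), an interval that overlapped with that of strong shared contacts. Sertoli-only contacts had 5.01% (3.70 to 6.75) and pre-granulosa-only contacts 5.87% (3.91 to 8.72), and these intervals lay below it, that of pre-granulosa-only contacts by little. With each bin counted once, since both baits of Muc2 contacted the same bin, the shares were 13 of 96 (13.54%, 8.09 to 21.8) for strong shared, 5.16% (3.80 to 6.97) for Sertoli-only and 5.77% (3.80 to 8.66) for pre-granulosa-only contacts, and the interval of the last then overlapped with that of strong shared contacts.

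A few bins held genes of microRNAs, short RNAs that pair with messenger RNAs through their seed. There were 12 contacts whose bin held a microRNA gene over its whole length, with 11 such genes; Mir3470a, which lies across the border of a pair of bins, is not counted. Mir499, which lies in a myosin gene, was contacted by the bait of Ggt7 and Acss2 at 106.8 kb with scores of 12.9 (Sertoli) and 13.6 (pre-granulosa). Mir150, a microRNA gene known from lymphocytes, was contacted by Fcgrt, which encodes the neonatal Fc receptor, at 16.0 kb with 19.9 and 12.5. Mir7054 was contacted by Irf3, a transcription factor of the interferon response, at 10.9 kb with 28.1 and 22.4. The mature sequences of RefSeq on GRCm38.p6 are shown to identify these microRNAs, with the seed (bases 2 to 8) in capitals, and no seed is shared between them.

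mmu-miR-499-5p: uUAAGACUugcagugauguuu
mmu-miR-150-3p: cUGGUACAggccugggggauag
mmu-miR-7054-5p: uAGGAAGGugguugggcugaguacu

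The contacts with the highest lower score lay both near and far. Ugt1a1, which encodes the enzyme that conjugates bilirubin, contacted chr1:88219458-88224538 in its own gene at 10.3 kb, with 39.7 (Sertoli) and 34.0 (pre-granulosa). Ctnnd1, which encodes the cadherin partner p120 catenin, contacted chr2:84638962-84643962 in its own gene at 10.6 kb with 33.8 and 34.4, and the next bin at 16.0 kb with 33.0 and 33.5. The Ctnnd1 contacts were almost level between the cell types, and that of Ugt1a1 was higher in Sertoli cells.

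Other high contacts lay both inside and outside the bait gene. The bait of Cln3, a gene of a lysosomal membrane protein, and Apobr, an apolipoprotein B receptor gene, contacted chr7:126633668-126639166 at 49.2 kb with 38.9 and 33.2. Fubp1, which encodes a single-stranded DNA-binding regulator of Myc, had a contact of 44.3 and 33.2 at 16.0 kb in its own gene and one of 33.3 and 32.6 at 107.1 kb upstream in Gipc2. Both Fubp1 contacts were thus among the 12 highest. Islr2, a gene of a leucine-rich repeat membrane protein, contacted Ccdc33 at 146.2 kb with 42.3 and 31.5, and the bait of Syt8, a synaptotagmin gene, and Tnni2, a troponin I gene, contacted Ifitm10 at 102.3 kb with 42.3 and 29.9. Itln1, a lectin gene, had 29.8 and 30.2 at 16.6 kb. The highest Sertoli score of all members, 49.3, belonged to Pigo, a gene of GPI-anchor synthesis, with 28.1 in pre-granulosa cells at 11.5 kb. A contact of 2010315B03Rik between genes at 50.45 kb had 29.0 and 31.4, so that the higher score of these 12 contacts was found in either cell type.

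Rgs16, which encodes an inhibitor of G-protein signalling, had a block of contacts far upstream. It contacted 4 touching bins from chr1:153554540-153576821, between genes, at 165.5 to 182.2 kb. The scores of the farthest bin were 30.9 (Sertoli) and 33.3 (pre-granulosa), and those of the next 22.6 and 23.6. The 2 nearer bins had 16.7 and 10.5, and 17.5 and 11.5. The block was strongest at its far edge in both cell types.

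Blocks of this kind were frequent. Among strong shared contacts 32.3% (30.1 to 34.5) touched another strong shared contact of the same bait, against 20.3% of weaker shared, 27.6% of Sertoli-only and 10.3% of pre-granulosa-only contacts that touched another of their own group. These shares depend on how many contacts a group has. Counted against any listed contact of the same bait, 87.9% (86.3 to 89.3) of strong shared contacts had a touching neighbour, against 72.3%, 55.5% and 43.5%. The groups are defined by score and neighbouring bins share signal, so this order is not independent of the choice either. Merging touching bins gave 1451 separate contacts, of which 239 were runs of at least 2 bins. Of these runs, 172 had 2 bins, 47 had 3, 12 had 4, 4 had 5 and 4 had 6.

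The longest runs had 6 bins and belonged to 4 genes. The run of Fbxl19, an F-box protein gene, covered chr7:127655666-127687798, mostly in Bcl7c, and all 6 bins scored higher in Sertoli cells. The run of Ctnnd1 covered chr2:84610499-84643962 in its own gene, with 3 of 6 bins higher in Sertoli cells. Syncrip, a gene of an RNA-binding hnRNP protein, had a run over its own gene and just past it at 10.4 to 36.7 kb, also with 3 of 6. The run of Amotl2, which encodes an angiomotin-family junction protein, covered chr9:102627152-102660258 at 63.2 to 90.4 kb, with all 6 higher in Sertoli cells. The direction was thus shared along some runs and mixed along others.

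Strong shared contacts were unevenly spread over baits: 570 of the 933 baits had 1, and 59 baits had at least 5 and together 419 contacts (23.4%). The bait with the most, 19, carries the promoters of Med19, a subunit of the Mediator complex, Tmx2, a thioredoxin-related membrane protein gene, and the predicted gene Gm28635. Its contacts ran from 217 kb on one side to 31.3 kb on the other, and 15 of 19 scored higher in Sertoli cells. The highest Sertoli score, 30.7 beside 18.2 in pre-granulosa cells, was at 61.8 kb in Ctnnd1. On the other side a run of 5 bins over Zdhhc5, a palmitoyltransferase gene, reached 25.6 and 19.3, the latter the highest pre-granulosa score of this bait. Of its 7 bins in Ctnnd1, 5 were strong shared contacts of the Ctnnd1 bait too.

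The other baits with many contacts differed in where these lay. Znrf1, a ubiquitin ligase gene, had 14, all on one side at 10.5 to 124.9 kb, of which 11 lay in its own gene; the highest Sertoli score was 34.4, beside 12.6 in pre-granulosa cells, at 62.4 kb. Fbxl19 had 13, of which 12 scored higher in Sertoli cells. Bcl2l1, which encodes the anti-apoptotic protein Bcl-xL, had 12, all on its transcribed side: 4 in its own gene, 1 at Id1, a gene of an inhibitor of helix-loop-helix factors, with 27.2 and 15.1 at 90.9 kb, and 4 in H13, a signal peptide peptidase gene, with up to 21.9 and 24.8 at 138.5 kb. In Bcl2l1 the 3 highest bins of its own gene were Sertoli-higher, while 3 of the 4 bins in H13 were pre-granulosa-higher. Syncrip had 11 and the bait of Htra2, a mitochondrial protease gene, Aup1 and Dqx1 had 10, of which 6 lay in M1ap, a meiosis gene. The baits of Bckdk and of Hcst with Nfkbid had 10 as well.

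**Figure D3:**
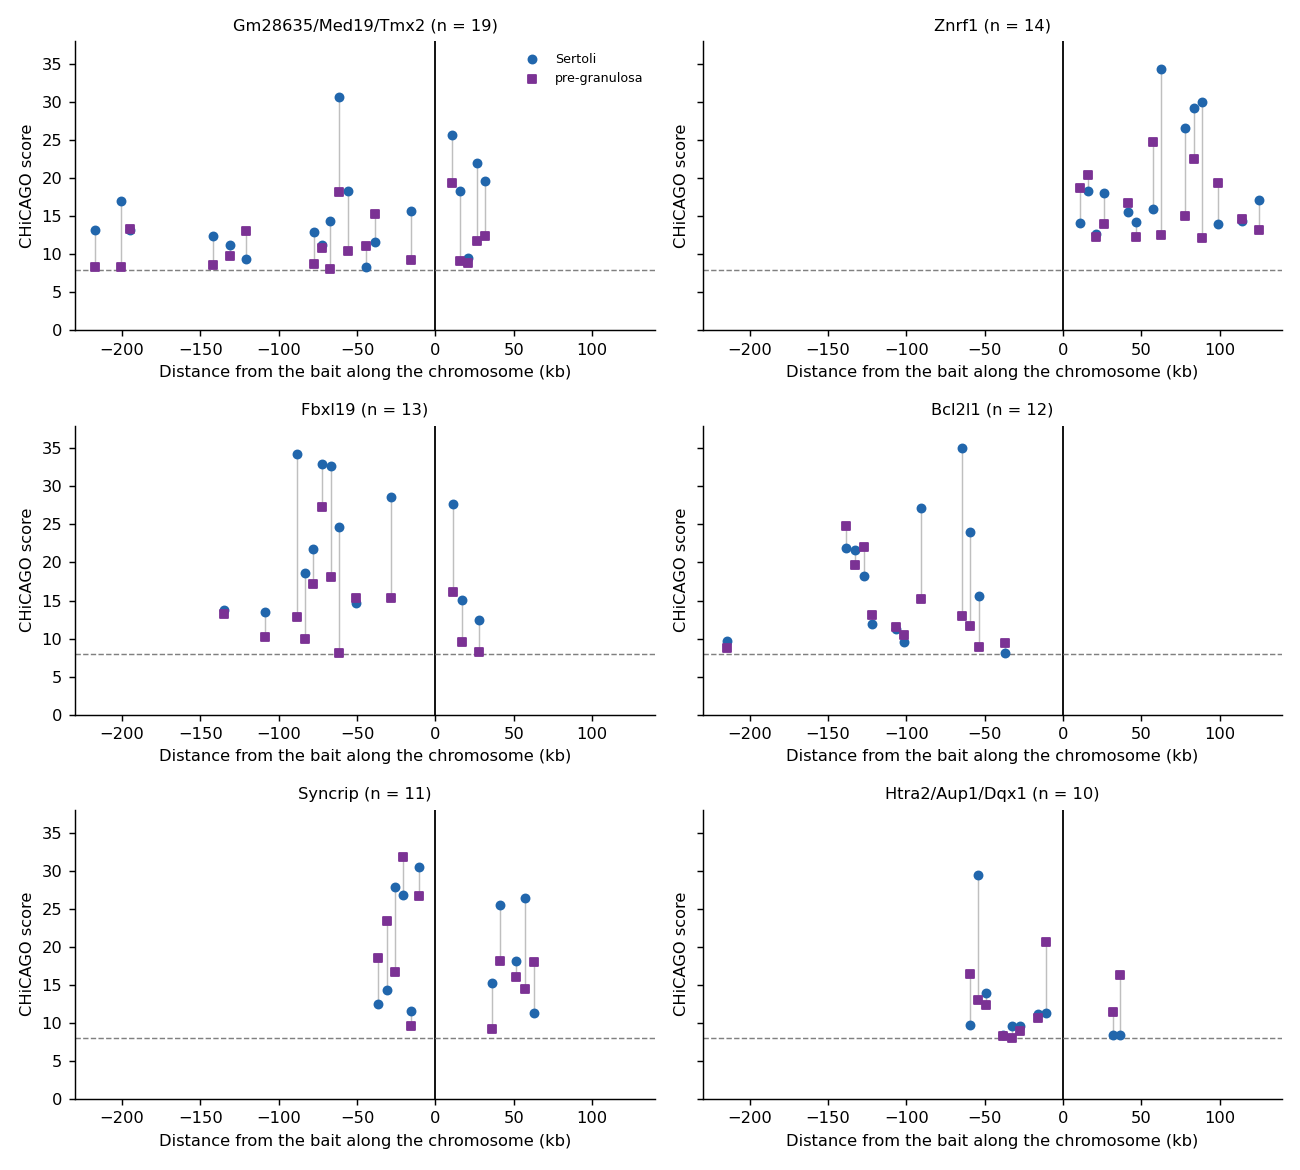
CHiCAGO scores in Sertoli cells (circles) and pre-granulosa cells (squares) of all strong shared contacts of 6 baits against the signed distance from the bait along the chromosome (kb); grey lines join the values of 1 bin, the vertical line marks the bait and the dashed line the threshold of 8. The contacts of Znrf1 and Bcl2l1 lie on one side of the bait, those of the other 4 baits on both, and those of Fbxl19 are higher in Sertoli cells in 12 of 13.

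Some bins were reached from several promoters. Of the 1617 bins, 143 (8.84%) were strong shared contacts of at least 2 baits: 122 of 2, 15 of 3, 4 of 4 and 2 of 5. The share was 9.11% for weaker shared, 17.8% for Sertoli-only and 5.98% for pre-granulosa-only contacts, which depends on how many contacts a group has. Baits of 1 gene count separately here and lie close together. One stretch with several such bins was chr1:88214246-88296735, which starts within the Ugt1a cluster and ends before the bait of Trpm8, a cold-sensing ion channel gene. There 8 bins held 26 contacts of 6 baits, with Sertoli scores of 8.50 to 39.7 and pre-granulosa scores of 9.14 to 34.0. The bait of Trpm8 reached all 8 bins, at 11.8 to 88.3 kb, with Sertoli scores of 11.6 to 31.3 and pre-granulosa scores of 12.3 to 24.4. The bait of Ugt1a1 reached 3, both baits of Mroh2a, a gene named for HEAT repeats, 3 and 6, and both of Hjurp, the chaperone of the centromeric histone, 5 and 1. The bin chr1:88240792-88245989 in Mroh2a was reached from 5 baits.

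The other bin with 5 baits was chr5:24415832-24421276, which holds Asic3, an acid-sensing channel gene, and Cdk5, a cyclin-dependent kinase gene. It was reached from 3 baits of Abcb8, a mitochondrial transporter gene, from Slc4a2, an anion exchanger gene, and from the bait of Fastk and Tmub1, all at 10.3 to 27.4 kb. Sertoli scores ran from 10.5 to 17.4 and pre-granulosa scores from 8.48 to 15.2.

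The longest strong shared contacts were those of Pdgfra. This gene, which encodes a receptor of platelet-derived growth factor, contacted 2 touching bins in Scfd2, chr5:74306519-74311603 at 846 kb with 10.7 (Sertoli) and 10.5 (pre-granulosa), and chr5:74311604-74317063 at 841 kb with 8.91 and 13.7. It had a second pair of contacts upstream, at 210.3 kb with 10.8 and 11.8 and at 194.2 kb with 9.78 and 13.7. In 3 of these 4 bins the pre-granulosa score was the higher one.

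The bait of Sox6, an SRY-related factor, and 1110004F10Rik contacted a bin between genes at 825 kb with 11.7 and 10.8 and one at 588 kb with 8.14 and 10.2. Tfap2b, which encodes AP-2 beta, contacted chr1:19970212-19975784 at 764 kb, between genes and with no protein-coding start on the way, with 15.8 (Sertoli) and 14.7 (pre-granulosa). Mecom, a zinc finger factor gene, contacted chr3:30512648-30518173 at 502 kb upstream with 18.8 and 18.4. Klf3, a zinc finger repressor gene, had 4 contacts upstream in pairs of touching bins: 16.2 and 14.0 at 433 kb, 11.8 and 19.8 at 428 kb, 20.3 and 19.3 at 303 kb, and 8.53 and 13.8 at 298 kb. The scores of Tfap2b, Mecom and the Klf3 bin at 303 kb differed little between the cell types.

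Contacts of other genes lay between these in length. Azi2, an adaptor gene of interferon signalling, had the highest lower score beyond 300 kb, 27.2 and 27.4 at 442 kb. Gad1, which encodes the enzyme that makes GABA, contacted Myo3b at 433 kb with 16.5 and 19.1. Cpne4, a copine gene, contacted Nek11 at 822 kb with 9.71 and 8.95, Fjx1 a bin in Commd9 at 548 kb with 8.32 and 9.56, and Cspp1 one at 472 kb with 8.95 and 8.47. Sulf2, a heparan sulfate sulfatase gene, contacted bins at 407 kb with 28.5 and 16.6 and at 396 kb with 18.0 and 12.9, higher in Sertoli cells in both. On chromosome 1 contacts of Gm973 and Cdk15 faced each other: Cdk15 contacted a bin of Gm973 at 356.6 kb with 9.12 and 12.5, and Gm973 contacted chr1:59246900-59252322, the bin that adjoins the Cdk15 bait, at 382.7 kb with 12.2 and 11.2.

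**Figure D4:**
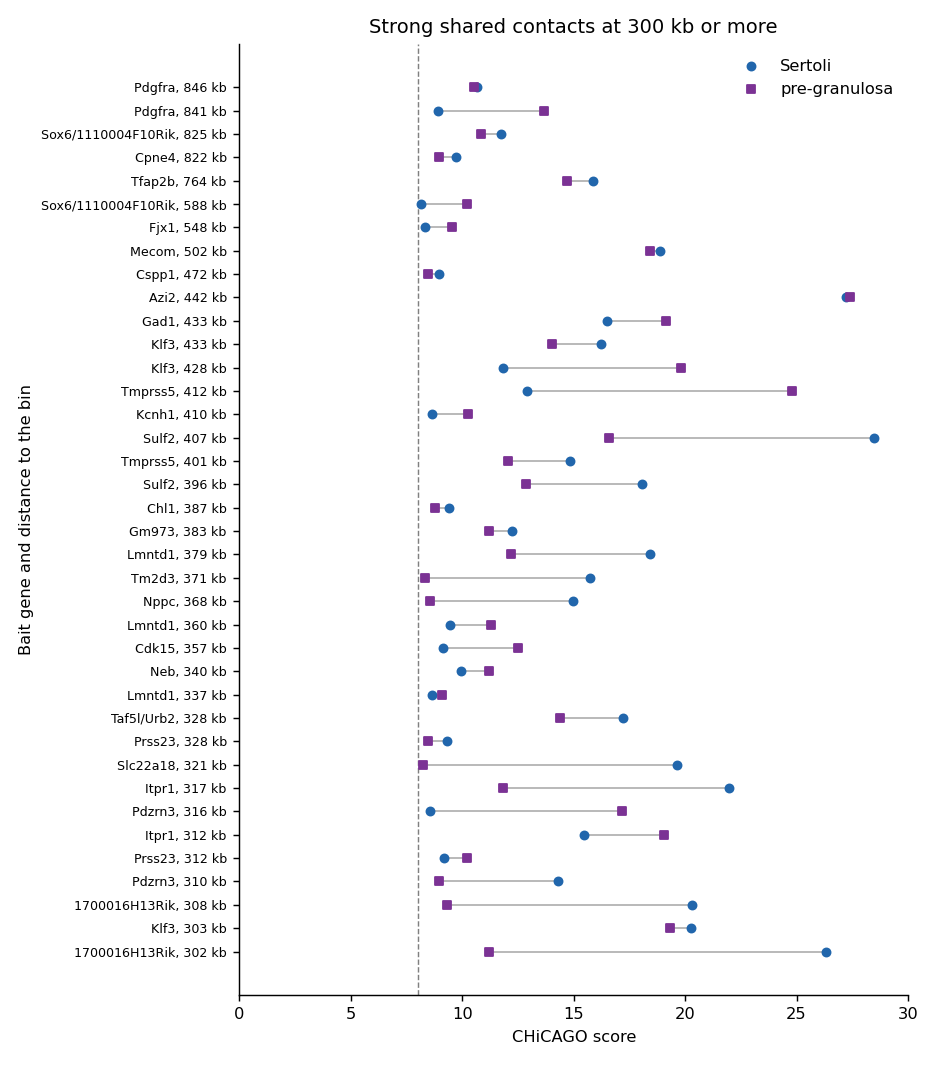
CHiCAGO scores (x) in Sertoli cells (circles) and pre-granulosa cells (squares) of every strong shared contact of at least 300 kb, named by bait gene and distance and ordered by distance; the dashed line marks the threshold of 8. Most scores lie between 8 and 20, and the pairs of Azi2 (27.2 and 27.4), Mecom (18.8 and 18.4) and the longest contact of Pdgfra (10.7 and 10.5) nearly coincide.

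Although all these contacts scored at least 8 in both cell types, some leaned to 1 of them. The largest differences of inverse hyperbolic sine scores towards Sertoli cells were those of Cdhr4, a cadherin-related gene, at 65.2 kb in Rnf123 with 31.3 and 8.51, of Atp2c1, a Golgi calcium pump gene, at 123.2 kb with 34.3 and 9.87, and of the bait of Trex1, a DNA exonuclease gene, and Atrip at 55.4 kb in Pfkfb4 with 45.9 and 13.4. Pde2a, a phosphodiesterase gene, followed with 29.1 and 9.35 in its own gene, and Tulp2 with 27.6 and 9.02. Towards pre-granulosa cells they were smaller. Olfr694, an olfactory receptor gene, had 8.82 (Sertoli) and 20.3 (pre-granulosa) at 10.2 kb, and Cd244a, a receptor gene of natural killer cells, 14.4 and 30.3 at 11.8 kb. The bait of Tomm40l and Apoa2, an apolipoprotein gene, had 11.9 and 24.9 at 113.2 kb, Prkcsh, a glucosidase II subunit gene, 9.95 and 20.5 at 43.8 kb in Elavl3, and Higd1a, a hypoxia-induced mitochondrial gene, 8.02 and 16.5 at 10.8 kb. Without values per library, neither direction can be set against the spread between libraries.

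Genes known for the supporting cells themselves had few listed contacts. Of 17 listed contacts of 6 baits of Sertoli genes, 0 were strong shared, and of 9 contacts of 3 baits of pre-granulosa genes, 0, which allows shares of up to 18.4% and 29.9% by the Wilson upper bounds. Both bounds lie above the 7.82% of all listed contacts, so that these counts do not set the marker genes apart. The nearest were Ptgds, the prostaglandin D synthase of Sertoli cells, with 7.74 and 8.05 at 21.1 kb, and Lhx2, a LIM homeobox gene, with 8.88 and 7.75 at 10.8 kb in its own gene. Col9a3, a collagen gene of Sertoli cells, had 7.72 (Sertoli) and 17.7 (pre-granulosa) at 10.7 kb. Of 10 contacts of 4 baits of genes used by both lineages, 1 was strong shared: Igf1r, the receptor of insulin-like growth factor, at 158.4 kb upstream with 8.44 and 8.52. Wt1, Nr5a1 and Lhx9 had listed contacts but no strong shared one.

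The larger lists were built from gene symbols and are set beside the 7.82% of all listed contacts. Developmental transcription factor genes had 21 of 420 (5%, 3.29 to 7.52), with the highest lower score at Nr6a1, an orphan nuclear receptor gene, which had 22.3 (Sertoli) and 32.4 (pre-granulosa) at 64.2 kb. Of these 21, 10 scored higher in Sertoli cells. Others of the list were Zic4 with 14.7 and 14.9, Junb with 14.9 and 14.0 and Dlx1, a homeobox gene, with 8.75 and 9.29, all at 10.6 to 10.9 kb from the bait. Chromatin regulator genes had 25 of 348 (7.18%, 4.91 to 10.4). Tet3, an enzyme that oxidises methylcytosine, had 27.4 and 18.9, Chd2, a remodeller gene, 19.3 and 18.8, and the bait of Dhx30 and Smarcc1, a BAF complex subunit gene, 24.7 and 14.8, each at 10.4 to 11.0 kb. Ezh2, the methyltransferase of Polycomb complexes, had 9.16 and 14.7 at 10.7 kb.

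Signalling ligand and receptor genes had 26 of 223 (11.7%, 8.08 to 16.5) from 11 baits. Of these, 4 came from the bait of Igfn1 and Tmem9, which the symbol of Igfn1 put in the list and which is not known as a signalling gene; without Igfn1 the share was 22 of 205 (10.7%, 7.19 to 15.7). Sema4a and Sema3b, semaphorin genes, had the highest lower scores, 24.95 and 23.1 at 52.6 kb in Pmf1 and 19.0 and 20.3 at 10.8 kb in Gnai2. Wnt7a, a WNT ligand gene, had 31.2 (Sertoli) and 15.4 (pre-granulosa) at 124.7 kb on its transcribed side. Fgfr3, a receptor gene of fibroblast growth factors, had its highest lower score at 58.5 kb in Tacc3, with 13.3 and 11.2. Its highest Sertoli score was 16.7, beside 8.12 in pre-granulosa cells, at 43.0 kb. Genes of the extracellular matrix and of adhesion had 19 of 278 (6.83%, 4.42 to 10.4), led by Ctnnd1. Postn, which encodes the matrix protein periostin, had 13.2 and 14.1 at 299.4 kb, and Itgav, an integrin gene, 11.9 and 12.7 at 10.5 kb. Cytosolic ribosomal protein genes had 5 of 71 (7.04%, 3.05 to 15.4). The intervals of the chromatin, matrix and ribosomal lists include 7.82%. That of the transcription factor list lay below it and that of the signalling list above it, while without Igfn1, an alternative added after the values were seen, the latter includes 7.82%. Contacts of 1 bait are not independent of each other, so these intervals are too narrow.

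Baits with a strong shared contact also had strong contacts with other promoters. Of the 933 baits, 489 (52.4%, 49.2 to 55.6) had a strong shared contact with a bin that carries a bait, against 1388 of the 5001 other baits (27.8%, 26.5 to 29.0). The baits were split by the same score threshold that defines this outcome, so the difference is not independent of the choice. They were not matched for signal or for their number of listed contacts, and the part of these in the difference was not tested. The bin touched such a promoter contact of the same bait in 18.0% (16.3 to 19.8) of strong shared contacts, 10.7% of weaker shared, 5.31% of Sertoli-only and 4.21% of pre-granulosa-only contacts. The 4974 strong shared contacts between promoter bins had a median distance of 26.3 kb (23.2 to 26.8), close to the 26.1 kb of contacts without a bait in the bin. A bin beside a captured promoter may share its signal, and the part of this in the results was not tested.

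In the deposited table with original baits, which are single restriction fragments from the same libraries, 90.6% (89.2 to 91.9) of the 1784 strong shared contacts whose bait is listed there were found again with at least 50% overlap of the bin. Both scores reached 5 in 67.3% (65.1 to 69.5) and 8 in 34.1% (31.9 to 36.3). Weaker shared contacts were listed in 71.8%, with both at 5 in 36.2% and both at 8 in 4.05%. Since the same reads stand behind both tables, this describes the effect of the bait definition and is no replication.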

How the data were processed

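Promoter contacts were measured by capture Hi-C (DpnII digestion, per the labels' protocols) in 3 Sertoli and 2 pre-granulosa libraries. The authors deposited CHiCAGO scores per bait and bin in 1 column per cell type, per the file headers, in a table of extended baits (bins) and one of original baits (fragments). Contacts are listed where at least 1 score reaches 5 (0 listed contacts are below). The build is mm10, per the submitters' processing notes. How libraries were combined, the caller's version, read filters and depth are not given in the sources used here, and depth sets no interval below.

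From the extended table, contacts on 1 chromosome (1 to 9) with a bin without a bait and both scores of at least 8 were taken. Bait genes and bins were annotated with RefSeq tables of GRCm38.p6: 954 of 969 bait symbols matched, and 5757 of 5894 matched bait genes (97.7%) overlapped their bait. Strand was taken from the RefSeq promoter table. Shares have 95% Wilson intervals and medians order-statistic intervals, which cover counting error only. Named contacts follow a rule: the 12 with the highest lower score, the 6 longest, the 5 in each direction whose inverse hyperbolic sine scores differed most, the 6 baits with the most contacts, the 6 bins with the most baits, and the members of gene lists. Other contacts named (gene starts, microRNAs, those beyond 300 kb, runs) and the promoters printed were chosen after their values were seen. The contacts and the lists were chosen with earlier results of these data known. Calculations used Python 3.11.15, pandas 2.3.3, numpy 2.4.6 and scipy 1.17.1, and were tested on simulated data. Chromosome X entered as an alternative only, and 1 bait that the rule names is not reported here.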

Additional observations from a re-analysis of the deposited data

How the results depend on the processing

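The number of contacts, their median distance and the shares that touched another of their bait, scored higher in Sertoli cells, lay on the transcribed side, lay in the bait gene or shared a bin between baits were recomputed under 7 alternatives. A threshold of 7, chromosome X added and touching bins merged moved none of these by more than their counting error or 1.5 times for the number, where a value could be had; merged bins give none for touching and for shared bins. With a threshold of 10 there were 920 contacts, 28.0% touched another and 7.43% of bins had at least 2 baits. With original baits the median distance was 12.8 kb, 22.5% touched another, 54.7% lay on the transcribed side and 44.9% in the bait gene. The range of listed distances may differ there. At 50 kb or more there were 625 contacts with a median of 101.9 kb, of which 36.5% touched another, 47.3% lay on the transcribed side and 9.63% in the bait gene, and 5.94% of bins had at least 2 baits. With equal numbers of calls, 3149 in each cell type at a Sertoli threshold of 9.96, 75.7% scored higher in Sertoli cells. Raising only the Sertoli threshold removes contacts with low Sertoli scores, which itself favours this share. The share of signalling genes without Igfn1, 10.7%, was added after seeing the data.

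No paired analysis was possible because the deposited scores are not split by library, and for the same reason leaving out a library was not possible. The share of Sertoli-higher contacts depends on the thresholds set for the cell types, and which contacts are listed depends on the bait definition. Depth is unknown, so that a score under 8 does not show that a contact is absent. Bins of about 5 kb limit where a contact ends, and contacts under 10.025 kb are not listed with extended baits.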
